A study of Homo sapiens with 4 samples.

Results

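The genes described here are 42 genes of double-strand break signalling and repair by homologous recombination, with the Fanconi anaemia pathway and the checkpoint kinases. They were chosen by name, with earlier results of these data known. All 42 were found among the 57820 genes of the deposited count tables, and all 42 had enough counts to be among the 16468 genes tested. The cells were SY5Y, a neuroblastoma line with wild type MYCN, harvested 12 h after treatment with SGSS05-NS or with the solvent DMSO, with 2 libraries of total RNA per group. The labels name the compound SGSS05-NS, while the study names SGSS05-NS3, a covalent inhibitor of the histone methyltransferase SETD8, for this experiment and lists SGSS05-NS as a related compound; the name in the labels is kept here. The labels and figure legends of the study give the dose as 3 μM, while its methods give a lower dose for this line, so the dose is not certain. The results are for 1 cell line and 1 time point.

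Homologous recombination repairs a double-strand break by copying the sister chromatid, and so is used mainly in S and G2 phase. The MRE11-RAD50-NBN complex binds the broken ends and starts resection with RBBP8 (CtIP), EXO1 and the helicase BLM, and BRCA1, PALB2 and BRCA2 then prepare the resected strand for its invasion of the sister chromatid. The Fanconi core complex ubiquitinates FANCI and FANCD2 at interstrand crosslinks, while ATM and ATR signal the damage through CHEK2 and CHEK1 and through phosphorylation of H2AX, on which MDC1, RNF8, RNF168 and TP53BP1 gather.

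Gene totals per library were between 21463105 and 25350204 counts, and the 42 genes had between 46 and 5350 counts each in a library. Fragments on the strand opposite to a gene made up 4.64% to 5.05% of those assigned on either strand, so the strand-specific counts were used. The share of fragments outside annotated exons was 11.8% and 12.0% with DMSO and 14.7% and 15.5% with SGSS05-NS, a difference whose part in the results was not tested. Of 10 noradrenergic neuroblastoma markers, 9 were well expressed, with a summed level of 4143 and 4488 CPM (counts scaled to a fixed library total) under DMSO and 2488 and 2528 under SGSS05-NS, and all 9 had an adjusted p under 0.05 in the lower direction, 7 of them under 0.001 (edgeR). Of all genes tested, 23.7% and 8.14% were lower at these thresholds. TH, the first enzyme of catecholamine synthesis and a defining marker, was near 0, at most 0.0856 CPM. Markers of other cell types summed to between 3.23 and 5.14 CPM, and CD3E and HBB had no count in any library.

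With SGSS05-NS some of these genes fell and none rose at an adjusted p of 0.001. The log2 fold changes were lower in the genes that span more of the genome. The study used this cutoff with edgeR's likelihood ratio test, which in these counts called 11 of the 42 genes lower, against 13.8% of all genes. Here the cutoff is used with edgeR's quasi-likelihood test (Benjamini-Hochberg adjustment over all genes tested). Adjusted p-values given with edgeR are from this quasi-likelihood test unless another fit is named. By that test 5 of the 42 genes fell, FANCC, BRIP1, MRE11, NBN and BLM, which is 11.9% against 8.14% of all genes tested. None rose, against 6.37% of all genes. In that direction 2 genes had an unadjusted p under 0.05 (21 in the lower direction), and the likelihood ratio test, DESeq2 and limma voom also called 0 higher. Over both directions an unadjusted p under 0.05 was found in 23 of the 42 genes and in 8807 of the 16468 genes tested, a similar share. At an adjusted p of 0.05 there were 17 genes lower, or 40.5% against 23.7% of all genes, and 2 higher, RNF8 and RNF168, or 4.76% against 22.6%. The median log2 fold change was -0.25 for the 42 genes and 0.01 for all genes tested. In this bulk RNA, fewer cells that express a gene and less of its RNA per cell cannot be told apart.

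Both treated libraries lay below both DMSO libraries for 24 genes, 57.1% against 36.9% of all genes tested. They lay above for 4 genes, 9.52% against 37.8%. The groups overlapped for the other 14. Log2 fold changes ran from -1.11 to 0.39, with 30 genes below 0 and 12 above. The count at 0.001 depended on the test, on the scaling and on single libraries. It was 11 with the likelihood ratio test (13.8% of all genes), 10 with DESeq2 (9.57%) and 3 when libraries were scaled by size only (6.05%). Beside the 5 genes named above, the likelihood ratio test called BRCA1, RAD50, ATR, TOPBP1, WRN and FANCI lower. DESeq2 called the same genes except WRN. FANCC, BRIP1 and MRE11 passed in every fit run, while NBN missed the threshold with scaling by library size and without DMSO replicate 2, and BLM without DMSO replicate 1, without SGSS05-NS replicate 2 and in 3 other fits. At an adjusted p of 0.05 the count lower stayed between 15 and 20 over all fits run. Without DMSO replicate 2, RNF8 and RNF168 no longer passed 0.05 and MDC1 did.

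**Figure D1:**
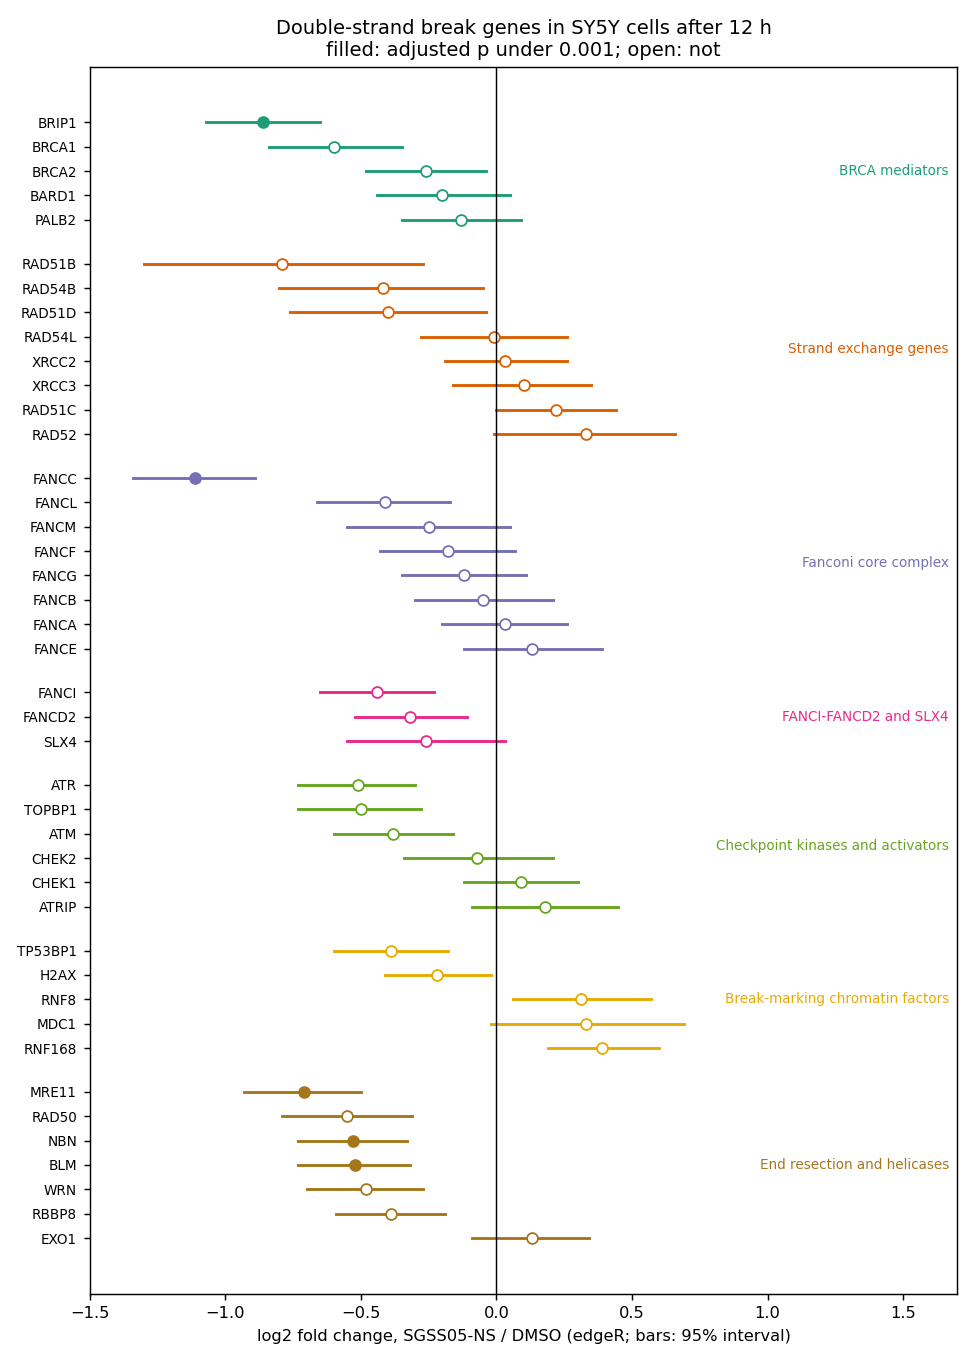
Log2 fold change of SGSS05-NS over DMSO (x axis) for each of the 42 genes, grouped by role, with the 95% interval of the fit as a bar and n = 2 libraries per group. Filled points are the 5 genes with an adjusted p under 0.001, all on the left of 0; the break-marking group has 3 of its 5 genes to the right.

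Promoter sequence was looked at as a feature that the choice of genes did not use. RefSeq windows of the 250 bases before the start (GRCh38.p14) matched 38 of the 42 genes. They are shown for FANCC, BRIP1, MRE11 and BLM, which fell, and for H2AX, with the most CCAAT boxes of these windows after XRCC3. Each is written 5′ to 3′ on the strand of the gene, and capitals mark the searched motifs on either strand: TTTGGCGC, TTTCCCGC or TTTCGCGC (E2F type), TTTGAA (CHR type) and CCAAT (the NF-Y box).
FANCC, minus strand, chr9:95317710-95317959: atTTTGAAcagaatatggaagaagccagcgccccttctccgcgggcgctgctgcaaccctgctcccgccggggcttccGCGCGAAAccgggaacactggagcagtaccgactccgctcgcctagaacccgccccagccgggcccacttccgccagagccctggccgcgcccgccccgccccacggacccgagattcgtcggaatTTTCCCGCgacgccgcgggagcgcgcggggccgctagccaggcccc
BRIP1, minus strand, chr17:61863529-61863778: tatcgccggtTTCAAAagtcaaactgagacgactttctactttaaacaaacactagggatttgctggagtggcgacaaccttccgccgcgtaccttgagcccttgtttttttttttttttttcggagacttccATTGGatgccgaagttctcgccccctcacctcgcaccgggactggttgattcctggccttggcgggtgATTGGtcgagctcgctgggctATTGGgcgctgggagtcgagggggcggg
MRE11, minus strand, chr11:94493845-94494094: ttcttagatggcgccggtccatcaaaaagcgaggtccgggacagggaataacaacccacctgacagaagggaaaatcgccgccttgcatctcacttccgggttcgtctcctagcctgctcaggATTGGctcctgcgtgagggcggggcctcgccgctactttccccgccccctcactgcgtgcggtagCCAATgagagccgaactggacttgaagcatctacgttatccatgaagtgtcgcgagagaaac
BLM, plus strand, chr15:90717096-90717345: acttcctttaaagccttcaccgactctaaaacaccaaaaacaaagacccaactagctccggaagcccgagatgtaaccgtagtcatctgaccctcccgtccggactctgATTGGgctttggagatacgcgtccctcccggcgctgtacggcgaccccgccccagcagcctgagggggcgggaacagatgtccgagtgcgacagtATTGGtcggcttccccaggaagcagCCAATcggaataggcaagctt
H2AX, minus strand, chr11:119095466-119095715: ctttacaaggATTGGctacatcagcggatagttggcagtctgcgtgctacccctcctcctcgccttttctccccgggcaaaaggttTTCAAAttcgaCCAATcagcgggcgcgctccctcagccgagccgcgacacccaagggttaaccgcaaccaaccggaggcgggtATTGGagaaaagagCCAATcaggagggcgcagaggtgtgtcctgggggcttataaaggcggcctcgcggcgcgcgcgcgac

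CCAAT was found in 17 of the 38 windows, 44.7% against 34.9% of tested genes and 33.0% of all windows. The genes with it had a median log2 fold change of -0.13 and those without it of -0.26. TTTGAA was found in 5 windows (ATM, BRIP1, FANCC, H2AX and MDC1), 13.2% against 8.21% of tested genes and 13.6% of all windows. An E2F type motif was found in 1 window, that of FANCC, 2.63% against 3.81% of tested genes and 2.38% of all windows. BRIP1 and BLM hold 3 CCAAT boxes each and fell, while XRCC3 holds 5 and was at 0.10. A match of letters is a description of the window and not of a bound site.

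FANCC (ENSG00000158169.7), a subunit of the Fanconi core complex, had the largest decrease of the 42. In hg19, the build of the files and of the gene positions that follow, it lies on the minus strand at chr9:97861336-98189078 and spans 327.7 kb. Its level was 54.4 and 51.2 CPM (normalized by the trimmed mean of M values, TMM) in the DMSO libraries and 23.3 and 25.4 CPM in the SGSS05-NS libraries, so that the groups did not overlap. The log2 fold change was -1.11 ± 0.10 (SE, n = 2 per group; edgeR adjusted p = 7.39e-06), a fall to 0.462 of the DMSO level. The other core complex genes had log2 fold changes closer to 0. FANCL, the ubiquitin ligase of the complex, was at -0.41 ± 0.11 (edgeR adjusted p = 0.0107), and the remaining 6 were between -0.25 (FANCM, the DNA translocase that anchors the complex) and 0.13 (FANCE), all with adjusted p above 0.05. FANCA, FANCB, FANCE, FANCF and FANCG had overlapping groups.

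BRIP1 (FANCJ; ENSG00000136492.4), the helicase that binds the BRCA1 C terminus, was the second of the genes that fell. It lies on the minus strand at chr17:59756500-59940920 and spans 184.4 kb. Its level was 190.1 and 167.7 CPM under DMSO and 98.9 and 98.5 CPM under SGSS05-NS, and the log2 fold change was -0.86 ± 0.10 (edgeR adjusted p = 3.28e-05). Its partners had smaller log2 fold changes, all below 0. BRCA1, named after its values were seen, was at 114.2 and 104.3 CPM under DMSO and at 80.2 and 64.5 CPM under SGSS05-NS, with a log2 fold change of -0.60 ± 0.11 and an adjusted p of 0.00123 by edgeR, just above the threshold of 0.001. With any library but SGSS05-NS replicate 2 left out BRCA1 passed, and without that one the adjusted p was 0.00415. BRCA2, BARD1 and PALB2 had log2 fold changes of -0.26, -0.20 and -0.13, and none of them passed an adjusted p of 0.05.

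Of the 7 end resection genes 3 fell at 0.001, 42.9% against 8.14% of all genes tested. They were 3 of the 5 genes that fell. MRE11, the nuclease of the complex (listed under its older symbol MRE11A in the annotation of the files; ENSG00000020922.8, chr11:94148736-94227051, minus strand), was at 47.9 and 46.4 CPM under DMSO and at 29.0 and 28.6 CPM under SGSS05-NS. Its log2 fold change was -0.71 ± 0.10 (edgeR adjusted p = 0.000137). NBN (ENSG00000104320.9), which brings ATM to the complex, was at 77.4 and 82.1 CPM under DMSO and at 55.1 CPM in both treated libraries, with a log2 fold change of -0.53 ± 0.09 (edgeR adjusted p = 0.000646; 0.00194 without DMSO replicate 2). The third subunit, the ATPase RAD50, had a similar log2 fold change but its libraries were further apart, at 111.5 and 128.6 CPM against 88.5 and 75.4 CPM, and with -0.55 ± 0.11 it did not pass 0.001 (edgeR adjusted p = 0.00167; named after its values were seen). All 3 subunits had treated libraries below both DMSO libraries.

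BLM, the RecQ helicase that works in long-range resection and dissolves double Holliday junctions (ENSG00000197299.6, chr15:91260577-91359396, plus strand), was at 81.8 and 75.2 CPM under DMSO and at 55.3 and 53.9 CPM under SGSS05-NS. Its log2 fold change was -0.52 ± 0.09 (edgeR adjusted p = 0.000871), the closest of the 5 to the threshold. Without DMSO replicate 1 the adjusted p was 0.00481 and without SGSS05-NS replicate 2 it was 0.00162, both by edgeR. WRN, the other RecQ helicase, and RBBP8, which switches on the MRE11 nuclease, were at -0.48 ± 0.10 and -0.39 ± 0.09. Both were past 0.05 and short of 0.001 by the quasi-likelihood test, while WRN passed 0.001 by the likelihood ratio test. EXO1, an exonuclease, was at 156.8 and 140.6 CPM under DMSO against 154.7 and 170.5 CPM under SGSS05-NS, with overlapping groups and a log2 fold change of 0.13 ± 0.10.

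FANCI and FANCD2, the clamp that the core complex ubiquitinates, were lower by 0.44 and 0.32 on the log2 scale in the treated libraries (log2 fold changes -0.44 and -0.32). Both were past an adjusted p of 0.05 and not of 0.001 by edgeR's quasi-likelihood test. By the likelihood ratio test FANCI passed 0.001, with an adjusted p of 0.000503. SLX4, the scaffold for the nucleases that cut at a crosslink, was at -0.26 with an edgeR adjusted p of 0.136. For all 3 the treated libraries lay below the DMSO libraries.

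The 8 strand exchange genes went both ways, 4 below 0 and 4 above. None passed 0.001, against 8.14% lower and 6.37% higher of all genes tested. RAD51B, with the longest span of all 42 genes at 910.4 kb, had the lowest value, -0.79 ± 0.24, at a low level of 114 and 112 counts under DMSO and 46 and 78 counts under SGSS05-NS, so its interval was wide, from -1.30 to -0.27 (edgeR adjusted p = 0.0170). RAD51C, which pairs with RAD51B and with XRCC3, was at 42.9 and 40.3 CPM under DMSO and 50.7 and 46.0 CPM under SGSS05-NS, a log2 fold change of 0.22 ± 0.10 (edgeR adjusted p = 0.0959). RAD52, an annealing protein, was at 7.37 and 6.98 CPM against 9.42 and 8.59 CPM, a log2 fold change of 0.33 ± 0.15 (edgeR adjusted p = 0.104). Both had treated libraries above both DMSO libraries without passing the test. RAD54B and RAD51D were at -0.42 and -0.40 with few counts, and RAD54L, XRCC2 and XRCC3 were between -0.01 and 0.10 with overlapping groups. By the annotation, exons of FSBP on the same strand cover 65.5% of the RAD54B transcript, and fragments there may be left uncounted as ambiguous.

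Of the kinases that head the pathway, ATR and ATM passed 0.05 in the lower direction, and the difference of either from its effector kinase was not tested. ATR, the kinase of stalled forks and resected ends, was at 48.5 and 47.4 CPM under DMSO and at 33.4 and 33.8 CPM under SGSS05-NS, with a log2 fold change of -0.51 ± 0.10 and an adjusted p of 0.00115 by edgeR, close above the threshold. TOPBP1, the activator of ATR, was at -0.50 ± 0.10 (edgeR adjusted p = 0.00198). ATM, the kinase of double-strand ends, was at 115.3 and 117.7 CPM against 82.8 and 96.5 CPM, with -0.38 ± 0.10 (edgeR adjusted p = 0.00909). CHEK1, the effector of ATR, was at 111.7 and 104.4 CPM against 109.3 and 120.6 CPM, and CHEK2, the effector of ATM, at 16.9 and 18.1 CPM against 15.6 and 17.8 CPM. The groups overlapped for both. Their log2 fold changes were 0.09, with a 95% interval from -0.12 to 0.30, and -0.07, with an interval from -0.34 to 0.21. ATRIP, the partner of ATR, was at 23.2 and 19.99 CPM against 26.2 and 22.9 CPM, with overlapping groups and 0.18 ± 0.12 (edgeR adjusted p = 0.249). Exons of TREX1 on the same strand cover 31.6% of the ATRIP transcript in the annotation.

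The genes that mark the chromatin around a break were divided. RNF168, the ligase that ubiquitinates histone H2A (chr3:196195654-196230639, minus strand), had the highest log2 fold change of the 42. It was at 74.9 and 71.7 CPM under DMSO and at 100.2 and 92.2 CPM under SGSS05-NS, with 0.39 ± 0.09 (edgeR adjusted p = 0.00510). RNF8, the ligase that acts before it, was at 32.3 and 27.5 CPM against 34.8 and 39.5 CPM, with 0.31 ± 0.12 (edgeR adjusted p = 0.0446). Both passed 0.05 and not 0.001. RNF8 missed 0.05 with DESeq2 (adjusted p = 0.0972), with no filter on low counts and with counts without regard to strand. It passed 0.05 with the likelihood ratio test and limma voom. Without DMSO replicate 2 the edgeR adjusted p of RNF168 was 0.0526 and that of RNF8 was 0.368, and RNF8 also missed 0.05 without SGSS05-NS replicate 2, at 0.196. MDC1, the reader of phosphorylated H2AX, was at 13.5 and 18.7 CPM against 22.4 and 18.1 CPM, so that the groups overlapped and its 0.33 ± 0.16 did not pass (edgeR adjusted p = 0.111), although it passed 0.05 without DMSO replicate 2 or SGSS05-NS replicate 2, at 0.00680 and 0.0282.

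TP53BP1, which encodes 53BP1, the protein that shields ends from resection, was at 176.8 and 178.5 CPM under DMSO and at 144.3 and 127.6 CPM under SGSS05-NS. Its log2 fold change was -0.39 ± 0.10 (edgeR adjusted p = 0.00655). H2AX (H2AFX in the annotation of the files; chr11:118964584-118966175, minus strand), a gene of 1 exon and the shortest of the 42, was at 199.2 and 191.4 CPM against 171.8 and 164.7 CPM. Its log2 fold change was -0.22 ± 0.09 with an adjusted p of 0.0709 by edgeR, so its groups did not overlap and it did not pass 0.05. These are RNA levels, and neither the phosphorylated histone nor foci are measured by them. Per kb of transcript, H2AX was the most abundant of the 42, at 122.7 CPM per kb under DMSO and 105.7 under SGSS05-NS, and EXO1 and FANCI followed with 43.1 and 45.0 CPM per kb under DMSO.

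**Figure D2:**
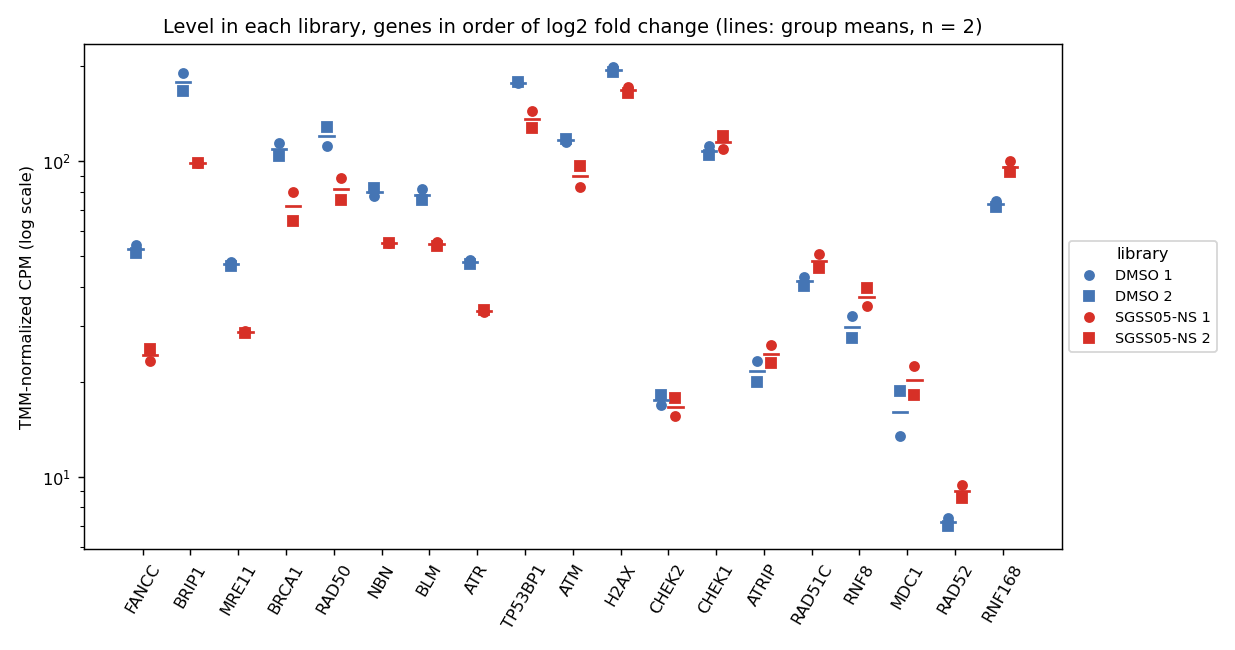
TMM-normalized CPM (y axis, log scale) in each of the 4 libraries for 19 of the genes, ordered by log2 fold change, with group means as lines (n = 2). From FANCC, at 54.4 and 51.2 against 23.3 and 25.4 CPM, to H2AX the treated points lie below both DMSO points, and for RAD51C, RNF8, RAD52 and RNF168 they lie above.

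The changes were then set beside gene span, the distance from the first to the last annotated base, which for most genes is nearly all intron. The 42 genes are long, with a median span of 74.4 kb against 25.7 kb for all genes tested. Over the 42 genes, Spearman's correlation of the log2 fold change with span was -0.64. Over the 16042 tested genes with a span it was -0.22. Within the role groups of 6 to 8 genes it was -0.83 for the checkpoint kinases and activators, -0.33 for strand exchange and -0.24 for the Fanconi core complex. For end resection it was 0.21, so the order by span was not seen within that group. These are descriptions across genes that share the same 4 libraries. With the span of the canonical transcript the correlation of the 42 genes was -0.69, with the summed length of the exons it was -0.50, and without RAD51B, the longest, it was -0.61.

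All 17 genes that were lower at an adjusted p of 0.05 span 50 kb or more. They are 65.4% of the 26 repair genes of that span, against 40.3% of all tested genes of that span. None of the 16 shorter repair genes was among them, against 15.8% of all shorter genes, and 2 of them, RAD51D and H2AX, were lower at an unadjusted p under 0.05. With the likelihood ratio test 1 shorter gene passed, with counts without regard to strand 2, without SGSS05-NS replicate 1 another 1, and in the remaining fits 0. The edge of 50 kb was taken from the classes below after the values were seen. By the span of the canonical transcript the same 17 genes were on the longer side, 73.9% of 23 against 43.8% of all such genes, and 0 of 19 were on the shorter side, against 15.8%.

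By class, the 7 genes under 25 kb had a median log2 fold change of 0.10, against 0.14 for all genes of the class, and the 9 genes of 25 to 50 kb had 0.03 against 0.10. Neither class held a gene lower at 0.001, against 4.23% and 2.06% of all genes. In the 15 genes of 50 to 100 kb the median was -0.32 against -0.03, and 3 of them, MRE11, NBN and BLM, were lower at 0.001, 20% against 5.06%. In the 11 genes of 100 kb and over the median was -0.48 against -0.42, and 2, FANCC and BRIP1, were lower at 0.001, 18.2% against 27.8%. Of the 42 genes, 29 lay below the median of their class and 13 above, and the median difference was -0.14.

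Single genes departed from their class. FANCC and MRE11 were 0.69 and 0.68 below the median of their classes on the log2 scale (differences of -0.69 and -0.68). FANCB has an annotated span of 182.9 kb and a log2 fold change of -0.05, but its canonical transcript spans 29.7 kb. RAD52 spans 78.3 kb and was at 0.33, with a canonical transcript of 38.0 kb. In all, 6 of the 42 genes have a gene span over 1.5 times that of the canonical transcript. RAD51D, of 29.3 kb, lay 0.50 below its class at -0.40, on 121 to 186 counts per library.

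**Figure D3:**
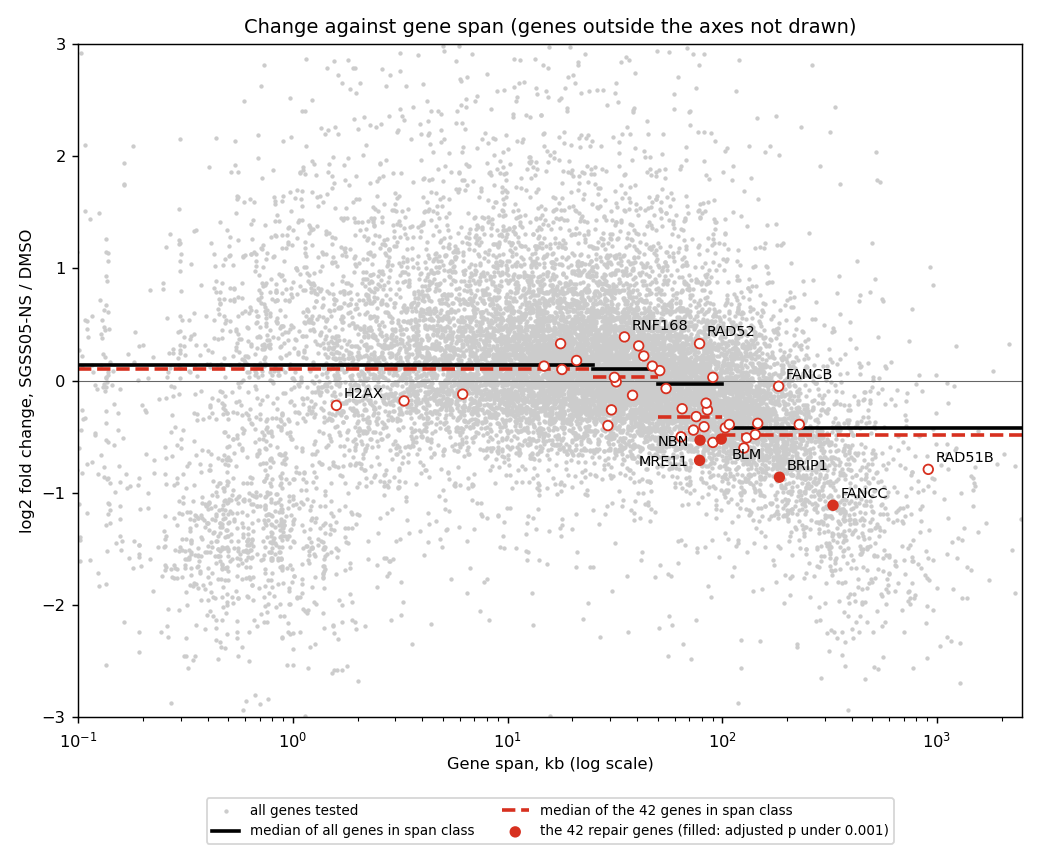
Log2 fold change (y axis) against gene span in kb (x axis, log scale) for all genes tested (grey) and the 42 repair genes (red, filled at an adjusted p under 0.001), with the median of each of 4 span classes as lines. The red median falls from 0.10 under 25 kb to -0.48 at 100 kb and over, and the largest gap to the black median of all genes is at 50 to 100 kb, -0.32 against -0.03.

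Several of these genes share a promoter region with a gene on the other strand, which gives pairs of genes with starts close together. Spans were nearly equal in some pairs: BLM and CRTC3-AS1 (98.8 and 97.1 kb), PALB2 and DCTN5 (38.2 and 36.0 kb), and XRCC3 and ZFYVE21 (both 17.9 kb). In 14 pairs, both tested, with starts within 1000 bases, the repair gene was lower than its neighbour in 10, and the longer gene of the pair was lower in 9. The median log2 fold change was -0.26 for the repair genes and 0.04 for the neighbours. With the starts of canonical transcripts there were 12 pairs, and the longer gene, still by gene span, was lower in 8. The neighbours called at 0.001 were 1 lower and 2 higher by gene start, and 0 lower and 1 higher by canonical start. No test was made of these counts.

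By gene start, and not by the start of its canonical transcript, TP53BP1, of 107.7 kb, lies beside MAP1A, a microtubule-associated protein gene of 20.7 kb. MAP1A was at 1.31 ± 0.17 (edgeR adjusted p = 7.86e-05), while TP53BP1 was at -0.39. WRN, of 142.4 kb, was at -0.48 beside PURG, of 37.9 kb, at 0.79 ± 0.15 (edgeR adjusted p = 0.00103). MRE11, of 78.3 kb, was at -0.71 beside ANKRD49, of 5.6 kb, whose start lies 140 bases from that of the canonical MRE11 transcript, at -0.12 ± 0.14. ATM was at -0.38 beside NPAT, the histone gene activator, at -0.11 ± 0.09. RAD52, also paired by gene start only, was the shorter of its pair, at 0.33, while ERC1, of 505.4 kb, was at -1.17 ± 0.10 (edgeR adjusted p = 4.59e-06). By gene start, the pairs of FANCM, XRCC3, SLX4, RAD51C and FANCB went against the order of span. The SLX4 neighbour DNASE1, of 68.4 kb, was at 0.03, while SLX4, of 30.4 kb, was at -0.26. The RAD51C neighbour TEX14, of 135.4 kb, was at 1.81 ± 0.32, on a low level of 0.617 and 2.18 CPM in the 2 groups. BRCA1 has a different partner by its canonical start, NBR2 in place of NBR1, and both partners were above 0 without passing 0.05.

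The rest of the pathway was read from 3 further lists with 84 tested genes. Of these, 6 fell (7.14%, against 8.14% of all genes tested) and 1 rose (1.19%, against 6.37%) at 0.001, and the median log2 fold change was -0.11. The count higher was 3 without DMSO replicate 1 and 2 without SGSS05-NS replicate 1. In the 38 other homologous recombination and Fanconi genes only UBE2T fell at 0.001 (2.63%). UBE2T, the ubiquitin-conjugating enzyme that serves the core complex, went from 99.6 ± 2.30 to 66.4 ± 4.12 CPM (SD, n = 2). Of the 18 end joining genes 4 fell, 22.2% against 8.14% of all genes tested. They were led by XRCC4, the partner of ligase IV, with 11.8 ± 0.136 CPM under DMSO and 4.22 ± 0.0434 CPM under SGSS05-NS (SD, n = 2). TDP1, which frees DNA ends from topoisomerase I, followed at -0.72 ± 0.10. The other 2 were PRKDC and PARP1. XRCC4 spans 276.3 kb.

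In the 28 tested break signalling adaptors, 1 gene fell and 1 rose, 3.57% each, against 8.14% and 6.37% of all genes tested. BABAM2, a subunit of the BRCA1-A complex that spans 449 kb, was at -1.22 ± 0.15 (edgeR adjusted p = 4.70e-05). PPM1D, the phosphatase WIP1, which is a p53 target and dephosphorylates ATM and H2AX, rose from 73.3 ± 2.55 CPM to 195.5 ± 4.34 (SD, n = 2), with a change of 1.42 ± 0.09 on the log2 scale (edgeR adjusted p = 5.14e-07). Spearman's correlation with span over the 84 genes was -0.25. Within the lists it was -0.56 for end joining (18 genes), 0.02 for the adaptors (28 genes) and -0.23 for the other homologous recombination and Fanconi genes (38 genes).

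Many of the 42 genes are expressed mainly in S and G2 phase, so genes of the cell cycle were read from the same fit. All 17 G2 and mitosis genes had a log2 fold change below 0, against 8064 of the 16468 genes tested. At 0.001, 9 of the 17 fell, 52.9% against 8.14% of all genes tested. Their median was -0.61, with a median span of 22.9 kb. TOP2A and KIF11 had the smallest p, at -0.74 and -0.71. The summed level of the list was 4333 and 4299 CPM under DMSO and 3262 and 2546 CPM under SGSS05-NS. Of the 18 tested S phase genes 3 fell (16.7%), RRM2, MCM3 and MCM6, and the median was -0.13. The part of these shifts in the values of the repair genes was not tested. With libraries scaled by size only, 4 cell cycle genes were lower at 0.001 in place of 12, and 6.05% of all genes in place of 8.14%.

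Counts on the opposite strand, which hold antisense transcripts and overlapping neighbours, were enough for a test in 13 of the 42 genes. None was called lower, against 5.76% of the 7200 genes tested, or higher, against 3.67%, and 0 had an unadjusted p under 0.05; the smallest adjusted p was 0.174 (edgeR, RAD52). In 6 genes, CHEK2, FANCA, FANCC, RAD52, RAD54L and XRCC3, these fragments passed 10% of those on either strand in at least 1 library. For FANCC the share was 3.13% and 3.40% under DMSO and 8.48% and 13.0% under SGSS05-NS, on 42 to 89 opposite-strand counts per library. Those counts were 44 and 42 under DMSO and 48 and 89 under SGSS05-NS, a log2 fold change of 0.45 ± 0.27 (edgeR adjusted p = 0.202). The counts on the strand of the gene, also part of the share, were 1364 and 1195 against 518 and 597.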

How the data were processed

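RNA of SY5Y cells was sequenced by the authors as paired reads, trimmed with Trimmomatic 0.30, aligned to hg19 with STAR 2.4.2a and counted by gene of GENCODE 19. The deposited values are raw fragment counts by gene in 3 columns (unstranded and 1 per strand), not normalized and not pooled. Only uniquely mapped reads count, which understates genes that have near-identical copies. The 4 summary rows were left out. The labels name a TruSeq RNA kit and the methods a strand-specific kit that depletes ribosomal RNA.

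The reverse-strand counts went into edgeR 4.0.16 (R 4.3.3), with filterByExpr, scaling by TMM and a quasi-likelihood test of treated against control libraries (Benjamini-Hochberg adjustment over 16468 genes, threshold 0.001). The standard error is the log2 fold change divided by the square root of F. Symbols, spans and transcripts came from GENCODE 44 on the same build, by gene identifier; 2282 identifiers had no entry. Gene totals of 21463105 to 25350204 set the counting precision. The labels do not say that the libraries of a group came from separate cultures, while the methods call them independent biological replicates. With 2 per group, the p-values rest on the spread between these libraries. The fit estimates that spread partly from all genes tested, so it is not that of a single gene alone. Alternatives were the likelihood ratio test, limma voom 3.58.1, DESeq2 1.42.0, other scalings and filters, counts without regard to strand, a replicate block and each library left out. The fit was tested on simulated data. Full values are given for genes past 0.001, the 6 genes with the smallest p in each direction and H2AX, TP53BP1, ATM, ATR, CHEK1 and CHEK2, and for other lists the 2 genes with the smallest p per direction past 0.001. Other genes were named after their values were seen. The genes and lists were chosen with earlier results of these data known, and no set test was run. UHRF1, PAGR1 and PECAM1 had no match by symbol. The result of 1 gene of the other lists is not reported here.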

Additional observations from a re-analysis of the deposited data

How the results depend on the processing

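The number of the 42 genes lower at 0.001 was 5, against 8.14% of all genes. It was 11 with the likelihood ratio test (13.8% of all genes), 10 with DESeq2 (9.57%) and 3 with scaling by library size (6.05%). With no filter on low counts it was 15, against 8.36% of the 30755 genes of that fit, which include genes with too few counts for the main test. With the replicate block it was 10 (12.2%). At an adjusted p of 0.01 it was 14 and at 0.05 it was 17 (23.7%). The number higher, 0, was 1 and 2 at these last thresholds. Leaving out 1 library in turn gave between 5 and 8 lower, with 8 without SGSS05-NS replicate 1. NBN was lost with scaling by library size and without DMSO replicate 2, and BLM with limma voom, scaling by library size, a minimum of 10 counts, without DMSO replicate 1 and without SGSS05-NS replicate 2; FANCC, BRIP1 and MRE11 passed in each of these fits.

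The median log2 fold change of the 42 genes was between -0.35 and -0.18 with 1 library left out, the lowest without DMSO replicate 2, and the correlation with span between -0.66 and -0.57, the weakest without SGSS05-NS replicate 1; with summed exon length in place of span it was -0.50. Other pathway genes lower at 0.001, 6, were 14 with the likelihood ratio test, 10 with DESeq2, 15 with no filter, 11 with the replicate block, 19 at 0.01 and 26 at 0.05, and those higher, 1, were 3, 3 and 3 in the likelihood ratio test, no filter and block, 5 at 0.01 and 18 at 0.05, and between 1 and 3 with 1 library left out. Cell cycle genes lower, 12, were 4 with scaling by library size (6.05% of all genes), 19 with no filter (8.36% of 30755 genes) and 24 at 0.05 (23.7%).

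The replicate numbers were not shown to pair the libraries: the correlation of same-numbered deviations was 0.0526, over 2 pairs only. The sign turned in 12 single values of 5 genes near 0. RAD54L was at 0.02 with scaling by library size, 0.03 without regard to strand and between -0.14 and 0.10 with a library left out. XRCC2 and FANCA were at -0.01 without regard to strand and between -0.10 and 0.15 with a library left out, XRCC3 between -0.04 and 0.22, and CHEK2 between -0.16 and 0.01. The cause of these changes was not tested.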
